A study of Mus musculus with 6 samples.

Results

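The genes of glucose breakdown were examined in the mouse spinal cord 3 days after a clip crush: the enzymes and transporters of glycolysis, of the pentose phosphate pathway and of lactate and pyruvate handling, with the hypoxia gene Hif1a and the peptide gene Adm. They were taken by gene symbol, and 39 genes, in 40 rows of the deposited tables, were found among 36629 in all. Bulk RNA-seq libraries came from C57/BL6 mice aged 3 to 5 weeks. The sham group (n = 3) had the cord exposed by laminectomy at vertebrae T9 and T10. In the SCI (spinal cord injury) group (n = 3) a vascular clip of 60 g force was also closed on the cord for 5 seconds, and both groups gave segments T8 to T12, so that the pieces reach beyond the crushed site. The labels call the sham animals untreated and do not say how many animals made a library, so p-values measure the spread between these libraries. Values are the authors' FPKM, fragments scaled to gene length and to library size, which allow levels of different genes to be compared per length.

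Glycolysis splits glucose into pyruvate and yields ATP without oxygen. Pyruvate then enters mitochondria through the pyruvate dehydrogenase complex, or is reduced to lactate and leaves the cell through monocarboxylate transporters, while the pentose phosphate pathway draws off glucose 6-phosphate to make NADPH and ribose. Many steps are run by isoenzymes, related proteins from separate genes that differ in kinetics and in the cells that make them. In the nervous system astrocytes and oligodendrocytes are known to hand lactate to neurons, and activated myeloid cells are known for a strongly glycolytic metabolism.

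The genes of this pathway did not move together in the injured cord: single isoenzymes rose steeply while their partners fell or did not pass the test. The steepest rises were those of the lactate exporter Slc16a3, which was 17.2-fold higher, of the hexokinases Hk3 (15.0-fold) and Hk2 (10.6-fold), of the peptide gene Adm (4.20-fold) and of the lactate dehydrogenase subunit Ldha (4.11-fold). The steepest falls were those of Ldhb, Eno2 and Aldoc, at 2.13-fold, 2.09-fold and 1.99-fold. Of the 39 genes, 38 had at least 1 FPKM in at least 3 libraries and were tested, and Fbp1 was too low. With limma on log2(FPKM + 1) and Benjamini-Hochberg adjustment over all 17435 genes tested, 15 were higher and 11 lower at an adjusted p under 0.05, and 12 did not pass. Among all genes tested 26.7% were higher and 30.8% lower, 57.5% in all. For 33 of the 38 all SCI values lay on one side of all sham values, against 67.6% of all genes tested. The median log2 change was 0.12 for the 38 genes and −0.08 for all genes tested. Hk3 and Slc16a3 reached 1 FPKM in 1 sham library and in all 3 SCI libraries, so that they entered the test through the group in which they were high. Without SCI replicate 2 the counts were 16 higher and 11 lower, and without SCI replicate 3 they were 13 higher and 11 lower.

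**Figure D1:**
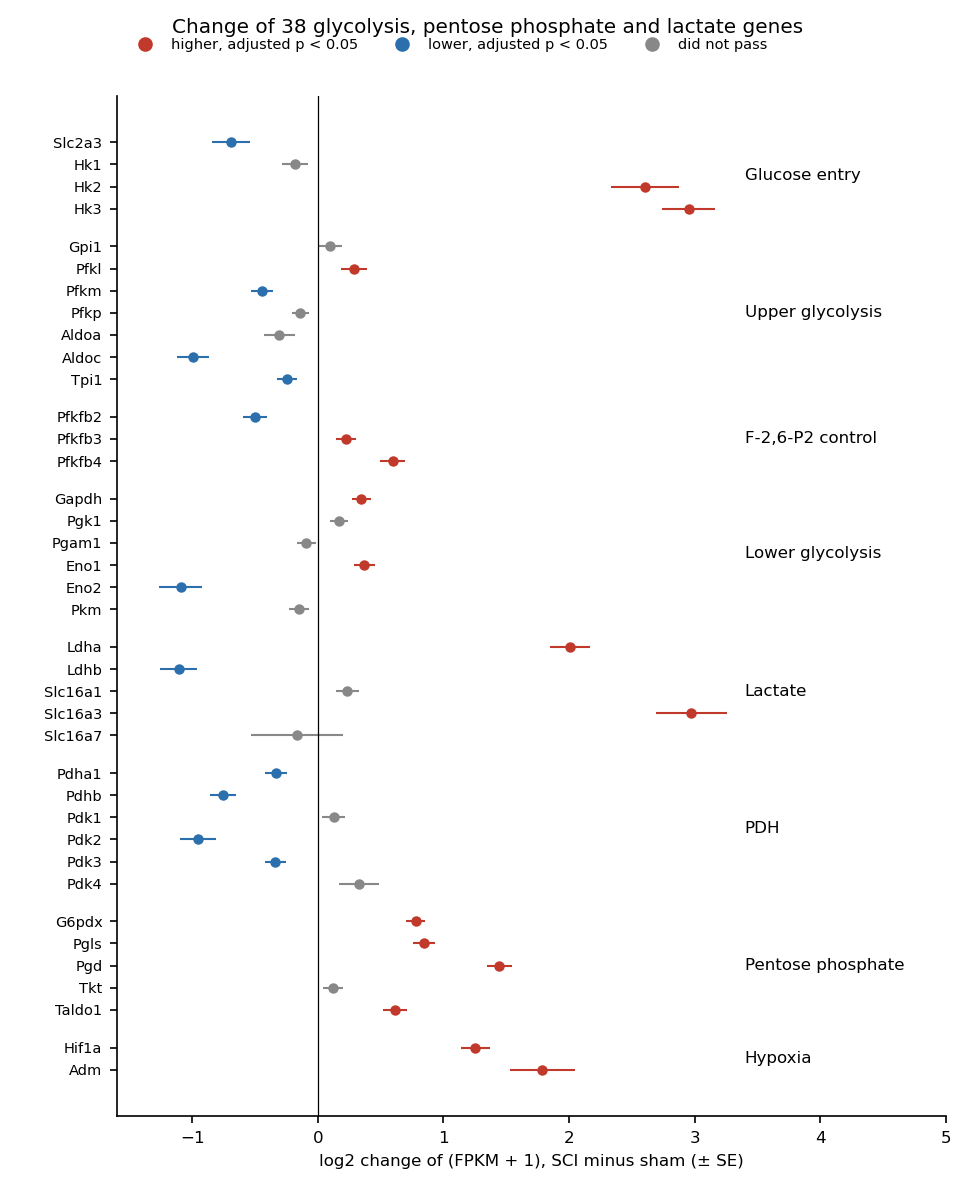
Log2 change of FPKM + 1 (SCI minus sham, x axis) of the 38 tested genes in order of their role, with limma's standard error as bars and the colour giving the call at an adjusted p under 0.05. Slc16a3, Hk3, Hk2 and Ldha lie to the right of all others, and Ldhb, Eno2, Aldoc and Pdk2 lie farthest to the left.

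The libraries differed in what else they held. Genes that mark neurons fell in 11 of 11 cases, with a summed level of 4197 to 5081 FPKM in the sham cord against 1186 to 2029 after SCI, and none was at 0 throughout a group. Of 8 macrophage markers 7 were tested and all 7 rose, from a sum of 127 to 173 up to 1560 to 2644 FPKM, and microglial markers rose in 7 of 7 cases (206 to 218 against 608 to 762 FPKM). Of 7 neutrophil markers 6 were tested and rose (17.5 to 45.6 against 137 to 658 FPKM). The 7 astrocyte markers had 3 higher and 4 lower and 5 of 6 oligodendrocyte markers fell. Endothelial markers rose in 5 of 5 cases (91.1 to 102 against 226 to 265 FPKM) and markers of proliferation in 6 of 6 (45.6 to 50.8 against 237 to 293 FPKM). Some of these markers, among them the macrophage genes Ms4a7, Ccr2 and Arg1, reached 1 FPKM in no sham library and so entered the test through the SCI group, which bears on the counts for macrophage, neutrophil and proliferation markers. In these bulk libraries, fewer cells of a type and less RNA per cell cannot be told apart. SCI replicate 2 had the lowest neuronal sum and the highest macrophage sum, and haemoglobin genes took 6.16% of its FPKM against 0.11% to 0.66% in the others. SCI replicate 3 stood apart for skeletal muscle markers, at a sum of 509.5 FPKM against 13.4 to 133 in the other 5 libraries. It alone held Scn10a and Mrgprd of sensory ganglia, both at 0 elsewhere, and Avil, Trpv1 and Isl2 were highest there. Prph, the most abundant of these 6 markers, was at 74.5 FPKM there and at 81.0 to 106 in the sham libraries. The sum of the 6 was 107.4 FPKM there, within the sham range of 83.6 to 108.1, and 29.4 and 15.2 in SCI replicates 1 and 2. Schwann cell markers summed to 530 FPKM in sham replicate 2 and to 1569 and 1604 in the other sham libraries. Among the 38 genes, 10 of the 15 that rose were highest in SCI replicate 2 and 11 of the 11 that fell were lowest there. For all genes tested these shares were 60.2% of those that rose and 84.8% of those that fell. The part of cell makeup in the changes given here was not tested.

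Glucose entry shifted among the hexokinases, which trap glucose in the cell as glucose 6-phosphate. Hk1, the constitutive hexokinase of the brain, measured 68.1, 61.1 and 61.4 FPKM in the sham cord versus 60.7, 48.8 and 58.8 after SCI (replicates 1, 2 and 3, as throughout), and its log2 change of −0.18 (SE 0.10) did not pass. Hk2, the inducible hexokinase of muscle and of dividing cells, measured 1.37, 1.05 and 1.46 FPKM in the sham cord versus 10.3, 21.0 and 9.77 after SCI. Every SCI library lay far above every sham library, and replicate 2 was the highest. Its log2 change was 2.60 (SE 0.27, limma adjusted p = 2.8e-04). Hk3, a hexokinase known from leukocytes, measured 0.98, 1.05 and 0.96 FPKM in the sham cord versus 10.9, 20.6 and 13.4 after SCI (log2 change 2.95, SE 0.21, limma adjusted p = 5.9e-05). It overlaps Unc5a on the opposite strand. Hk1 thereby went from 96.5% ± 0.266 (SD, n = 3 libraries, as for every ± value) to 66.6% ± 11.0 of the summed hexokinase FPKM. The sum itself measured 70.5, 63.2 and 63.8 FPKM in the sham cord versus 81.8, 90.4 and 81.9 after SCI.

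Slc2a3, the high-affinity glucose transporter of neurons, fell. It measured 28.3, 25.2 and 27.1 FPKM in the sham cord versus 17.8, 12.6 and 19.0 after SCI, a log2 change of −0.69 (SE 0.15, limma adjusted p = 0.0063). Its SCI values were lowest in replicate 2, as were those of 84.8% of all tested genes that fell. Slc2a1, the glucose transporter of the blood-brain barrier and glia, which is not among the 39, rose from 89.9 ± 8.32 to 157 ± 14.7 FPKM (log2 change 0.80).

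**Figure D2:**
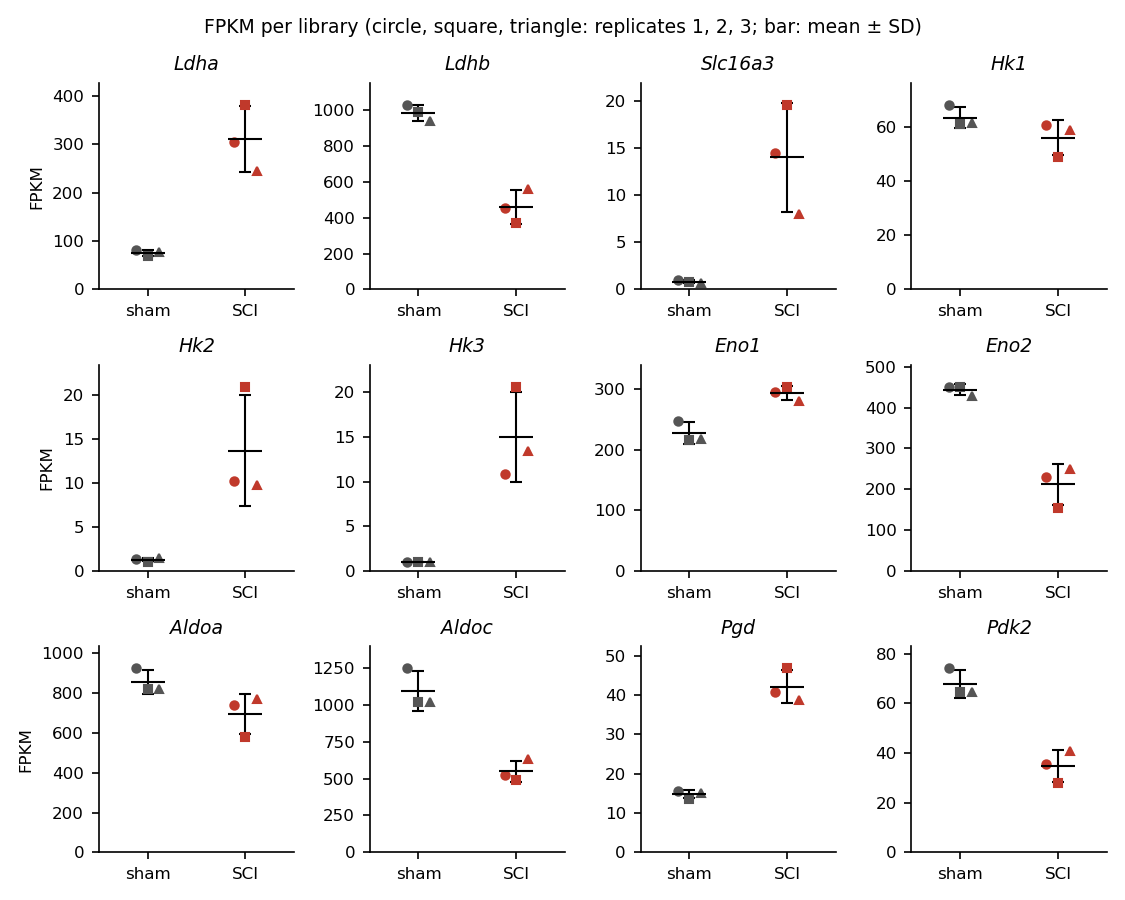
FPKM (y axis, linear from 0) of 12 genes in each sham and SCI library, with symbols for replicates 1, 2 and 3 and bars for mean ± SD. Hk2, Hk3, Ldha, Slc16a3, Eno1 and Pgd lie higher in all 3 SCI libraries than in any sham library, and Hk1, Ldhb, Eno2, Aldoa, Aldoc and Pdk2 lie lower.

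In upper glycolysis the most abundant isoenzymes fell. Pfkm, the muscle-type subunit of phosphofructokinase, the main control point of glycolysis, measured 292, 269 and 271 FPKM in the sham cord versus 196, 192 and 224 after SCI (log2 change −0.44, SE 0.09, limma adjusted p = 0.0043). Pfkp, the platelet-type subunit, measured 49.2, 51.0 and 49.5 FPKM in the sham cord versus 46.2, 43.3 and 46.0 after SCI and did not pass (log2 change −0.14). Pfkl, the liver-type subunit, measured 32.8, 25.1 and 28.4 FPKM in the sham cord versus 35.2, 35.5 and 34.5 after SCI. It rose by a log2 change of 0.29 (SE 0.10, limma adjusted p = 0.048). This small rise did not pass when any library other than sham replicate 1 was left out, with log2 changes of 0.19 and 0.28 without sham replicates 2 and 3 and of 0.28, 0.28 and 0.30 without SCI replicates 1, 2 and 3. Pfkm remained the leading subunit, with 77.9% ± 0.209 of the family's FPKM in sham and 71.7% ± 1.65 in SCI libraries.

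Aldolase cleaves fructose 1,6-bisphosphate into the 2 triose phosphates. Aldoc, the brain form that is abundant in astrocytes, measured 1248, 1016 and 1017 FPKM in the sham cord versus 527, 490.1 and 629 after SCI (log2 change −0.99, SE 0.13, limma adjusted p = 7.6e-04). Aldoa, the form of muscle and most other cells, measured 926, 822 and 819.7 FPKM in the sham cord versus 739, 580.1 and 769 after SCI. All SCI values of Aldoa lay below all sham values, yet its log2 change of −0.31 (SE 0.13) did not pass (limma adjusted p = 0.073), except without SCI replicate 3 (−0.38), the library with the highest muscle markers, and when scaled without mitochondrial and haemoglobin genes (−0.31). Aldoc was the more abundant of the pair in every sham library and Aldoa in every SCI library, at 44.0% ± 1.21 and 55.9% ± 2.23 of their sum. A second row named Aldoa, next to the main one on chromosome 7, was at 1.10 to 2.88 FPKM and did not pass.

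The remaining steps of upper glycolysis showed small differences. Tpi1, which interconverts the triose phosphates, measured 426, 396 and 374 FPKM in the sham cord versus 342, 321 and 346 after SCI and fell by 0.24 on the log2 scale (SE 0.08, limma adjusted p = 0.035). Leaving out sham replicate 1 or 2 (−0.20 and −0.25), or SCI replicate 1 or 3 (−0.26 in both cases), ended that call, as did median-ratio scaling (−0.15). Gpi1, the isomerase of glucose 6-phosphate, was at 153 ± 11.5 and 164 ± 13.4 FPKM and did not pass (log2 change 0.10), although it passed with median-ratio scaling (0.19).

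The genes that set fructose 2,6-bisphosphate, the activator of phosphofructokinase, split by member. Pfkfb4 measured 10.4, 9.17 and 8.46 FPKM in the sham cord versus 15.0, 15.1 and 13.7 after SCI and rose (log2 change 0.59, SE 0.10, limma adjusted p = 0.0020). Pfkfb2, the form regulated by phosphorylation in heart, measured 14.5, 15.2 and 15.2 FPKM in the sham cord versus 11.0, 9.05 and 10.9 after SCI and fell (−0.50, SE 0.10, limma adjusted p = 0.0041). Pfkfb3, the form known for driving glycolysis in activated and dividing cells, went from 27.3 ± 0.912 to 32.2 ± 2.31 FPKM. Its log2 change was 0.23 (SE 0.08, limma adjusted p = 0.044), and the call held when SCI replicate 1 was left out and was lost when any other library was. Without sham replicates 1, 2 and 3 it was 0.25, 0.21 and 0.21, and without SCI replicates 2 and 3 it was 0.17 and 0.24. Fbp1, the gluconeogenic enzyme that reverses the phosphofructokinase step, never exceeded 0.08 FPKM in the sham cord or 0.26 after SCI.

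Lower glycolysis held the enolase pair, whose members moved in opposite directions. Eno2, the neuronal enolase, measured 451, 451 and 428 FPKM in the sham cord versus 230.3, 155 and 251 after SCI (log2 change −1.09, SE 0.17, limma adjusted p = 0.0017). Eno1, the enolase of most tissues, measured 248, 215 and 218 FPKM in the sham cord versus 295, 304 and 281 after SCI (log2 change 0.37, SE 0.08, limma adjusted p = 0.0078). The neuronal form led in all 3 sham libraries and the general form in all 3 SCI libraries, where Eno1 made up 58.4% ± 7.00 of the sum against 33.9% ± 1.58. Their summed level went from 671 ± 26.4 to 505 ± 40.2 FPKM. Within the SCI group Eno2 was lowest and Eno1 highest in replicate 2. Of all genes tested, 84.8% of those that fell were lowest there and 60.2% of those that rose were highest there.

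The abundant genes Pkm, Pgk1 and Pgam1 did not pass. Pkm, pyruvate kinase, measured 768, 733 and 686 FPKM in the sham cord versus 666, 639.6 and 659 after SCI, with a log2 change of −0.15 (SE 0.08). Pgk1, phosphoglycerate kinase, was at 451 ± 8.39 and 507 ± 16.6 FPKM (log2 change 0.17). Leaving out SCI replicate 2 (0.19) or median-ratio scaling (0.26) brought it past. Pgam1, phosphoglycerate mutase, was at 406 ± 13.1 and 381 ± 13.1 FPKM (−0.09, and 0.0011 under median-ratio scaling).

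Gapdh, which is often used as a reference gene, was listed at 22.7, 21.6 and 20.6 FPKM in the sham cord versus 28.5, 28.1 and 26.8 after SCI, a log2 change of 0.35 (SE 0.07, limma adjusted p = 0.0062). This level was low beside its neighbours in the pathway. The tables list 78 genes, nearly all annotated as pseudogenes, whose transcript matches that of Gapdh at 95% identity or more over at least 50% of its length, and 40 of them had a mean of at least 1 FPKM. Gapdh and these copies summed to 4381, 3941 and 3914 FPKM in sham and to 4574, 4054 and 4452 in SCI libraries, and 99.4% of the sum lay in the copies. Reads of near-identical copies cannot be assigned to one of them, so the row of Gapdh alone is uncertain. With the copies summed the groups overlapped and the log2 change was 0.10 (limma adjusted p = 0.49). Eno1 had 29.2% of such a sum in 3 copies and Pgam1 11.1% in 1 copy, and with the copies summed Eno1 was at 318 ± 25.2 and 417 ± 13.9 FPKM, a log2 change of 0.39. For Pgk1, Tpi1, Pkm, Gpi1 and Ldhb the copies held at most 5.32% of the sum.

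**Figure D3:**
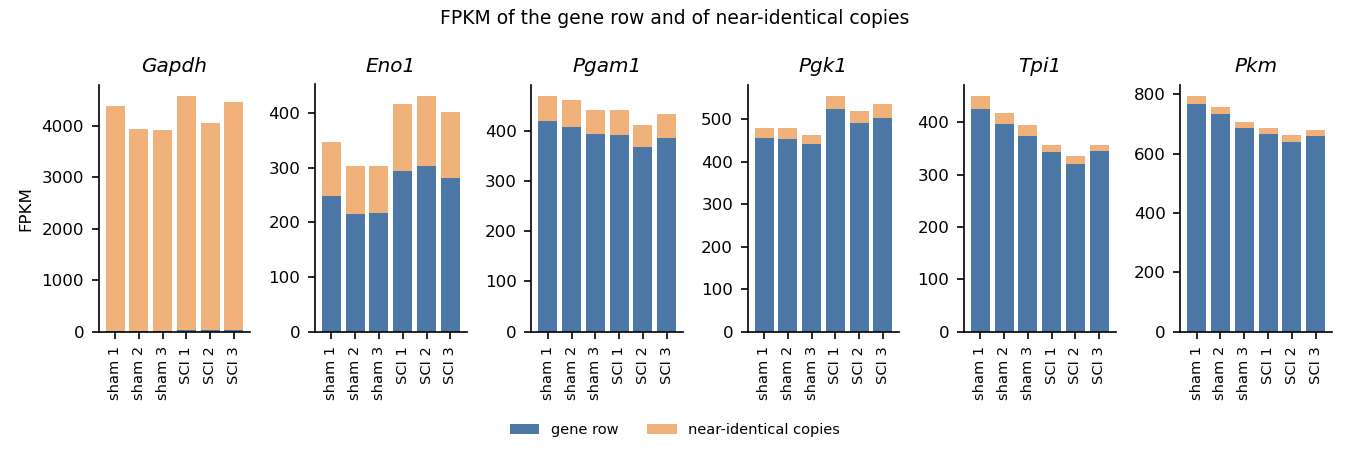
FPKM per library (y axis, a separate linear scale from 0 for each gene) of the row of each gene and, stacked on it, of its near-identical copies. For Gapdh the copies make up 99.4% of the bar, for Eno1 29.2%, and for Pgam1, Pgk1, Tpi1 and Pkm the gene's own row holds most of it.

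The subunits of lactate dehydrogenase moved in opposite directions. Lactate dehydrogenase is a tetramer of the products of Ldha, which favours making lactate, and Ldhb, which favours making pyruvate from it. Ldha measured 80.7, 68.1 and 77.7 FPKM in the sham cord versus 305, 381 and 246 after SCI. The groups were far apart, with no overlap (log2 change 2.01, SE 0.16, limma adjusted p = 8.7e-05). Ldhb measured 1027, 987 and 939 FPKM in the sham cord versus 455, 371 and 560.3 after SCI (log2 change −1.11, SE 0.15, limma adjusted p = 8.4e-04). The sham cord held far more Ldhb than Ldha, and in SCI replicate 2 the levels were about equal. The share of Ldha was 7.28%, 6.45% and 7.65% in sham and 40.2%, 50.7% and 30.5% in SCI libraries, while the sum of both fell from 1060 ± 46.0 to 772 ± 29.2 FPKM.

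The upstream sequences of the pair are shown because its members moved in opposite directions. Those of Hk2, Slc16a3 and Adm, which are only some of the 15 genes that rose, are added. Each run gives the 250 bases before a gene start from RefSeq on GRCm38.p6, 5′ to 3′ on the gene's strand, with capitals marking ACGTG or GCGTG on either strand, the letters of the core that the hypoxia-inducible factors are known to bind. Where ACGTG lies on both strands the letters are CACGTG, which is also the E-box read by other factors.
Ldha, chr7:46845554-46845803, plus strand: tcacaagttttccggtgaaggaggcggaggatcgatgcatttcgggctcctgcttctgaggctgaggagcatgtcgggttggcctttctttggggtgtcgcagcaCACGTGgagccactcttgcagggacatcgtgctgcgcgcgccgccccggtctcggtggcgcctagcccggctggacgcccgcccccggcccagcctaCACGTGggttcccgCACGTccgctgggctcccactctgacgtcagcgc
Ldhb, chr6:142507958-142508207, minus strand: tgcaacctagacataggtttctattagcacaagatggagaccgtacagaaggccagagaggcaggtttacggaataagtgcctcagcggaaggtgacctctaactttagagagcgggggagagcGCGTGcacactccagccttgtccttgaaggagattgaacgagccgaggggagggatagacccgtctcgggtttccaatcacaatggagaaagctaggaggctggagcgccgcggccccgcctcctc
Hk2, chr6:82774455-82774704, minus strand: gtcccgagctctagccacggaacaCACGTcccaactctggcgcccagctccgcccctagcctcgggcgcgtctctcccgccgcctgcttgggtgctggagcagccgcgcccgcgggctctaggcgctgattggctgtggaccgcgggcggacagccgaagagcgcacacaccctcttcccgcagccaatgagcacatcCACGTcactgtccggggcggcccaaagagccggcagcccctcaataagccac
Slc16a3, chr11:120948817-120949066, plus strand: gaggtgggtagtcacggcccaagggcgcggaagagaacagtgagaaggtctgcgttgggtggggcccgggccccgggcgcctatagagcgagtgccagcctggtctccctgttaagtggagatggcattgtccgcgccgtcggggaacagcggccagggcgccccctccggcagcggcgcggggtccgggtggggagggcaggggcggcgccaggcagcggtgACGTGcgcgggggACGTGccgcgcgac
Adm, chr7:110627407-110627656, plus strand: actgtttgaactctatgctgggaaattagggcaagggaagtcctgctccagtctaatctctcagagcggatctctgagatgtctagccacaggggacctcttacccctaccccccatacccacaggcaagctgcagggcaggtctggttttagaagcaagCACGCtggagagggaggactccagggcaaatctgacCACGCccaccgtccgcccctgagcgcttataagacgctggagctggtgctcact
The stretch before Ldha holds 5 matches, 4 of which pair up as 2 copies of CACGTG, whereas that before Ldhb holds 1. RefSeq gives Ldha a second start farther downstream, whose stretch holds 1. Those before Hk2, Slc16a3 and Adm hold 2 each, and the last 14 bases shown for Slc16a3 lie in an annotated exon. For Ldha and Slc16a3 the stretch shown lies inside the gene span given below, which begins farther upstream. The bases before that listed start are not shown. Among genes that rose and are not shown, the stretch before Hk3 holds 1 and that before Hif1a holds 3. RefSeq gives 300-base windows for 37 of the 39 genes, some with several starts. A match was present for 33 (89.2%), against 65.5% of the 11873 tested genes with a window and 46.7% of all 27025 genes with one. Counted by window, a match was present in 79.6% of the 54 windows of these genes and in 59.6% of the 15184 of tested genes. It was present for 15 of 15 genes that rose, 8 of 10 that fell and 10 of 11 that did not pass, so that genes of every call carried these letters. Both runs of letters contain CG, and these shares do not take the base composition of the windows into account, so they cannot be read as an enrichment. A match describes the sequence, and binding was not measured.

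The monocarboxylate transporters carry lactate and pyruvate across the cell membrane. Slc16a3, the low-affinity exporter of glycolytic cells, measured 1.01, 0.80 and 0.64 FPKM in the sham cord versus 14.5, 19.6 and 8.03 after SCI (log2 change 2.97, SE 0.28, limma adjusted p = 1.9e-04). Slc16a1, the transporter of endothelium and glia, measured 44.8, 41.4 and 45.0 FPKM in the sham cord versus 49.95, 47.6 and 57.5 after SCI. It was the most abundant of the family in all libraries and missed the threshold (log2 change 0.23, limma adjusted p = 0.061). It passed when SCI replicate 2 was left out (0.29), with median-ratio scaling (0.32) and when scaled without mitochondrial and haemoglobin genes (0.23). Slc16a7, the high-affinity transporter of neurons, ranged from 0.86 to 3.54 FPKM over the 6 libraries with overlapping groups. Slc16a3 went from 1.75% ± 0.405 to 20.6% ± 8.13 of the summed FPKM of these transporters. Within the SCI group Slc16a3, Hk2 and Ldha had their highest value in replicate 2 and their lowest in replicate 3. The neutrophil sum had the same order, at 275, 658 and 137 FPKM in replicates 1, 2 and 3. So did the sums of proliferation markers (266, 293 and 237 FPKM) and of red blood cell markers (4717, 45060 and 1528 FPKM). The macrophage sum was 1560, 2644 and 1841 FPKM, with Lyz2 at 910, 1610 and 1365. Within that list Arg1 (327, 623 and 141 FPKM), F13a1 (24.5, 47.1 and 23.8) and Chil3 (94.3, 114 and 80.9) had the same order as Slc16a3. Lyz2, Ms4a7, Ccr2, Cd68 and Ms4a8a did not. Of all tested genes that rose, 60.2% were highest in replicate 2, so that such an order does not single out a cell type. A link of these genes to a cell type was not tested.

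**Figure D4:**
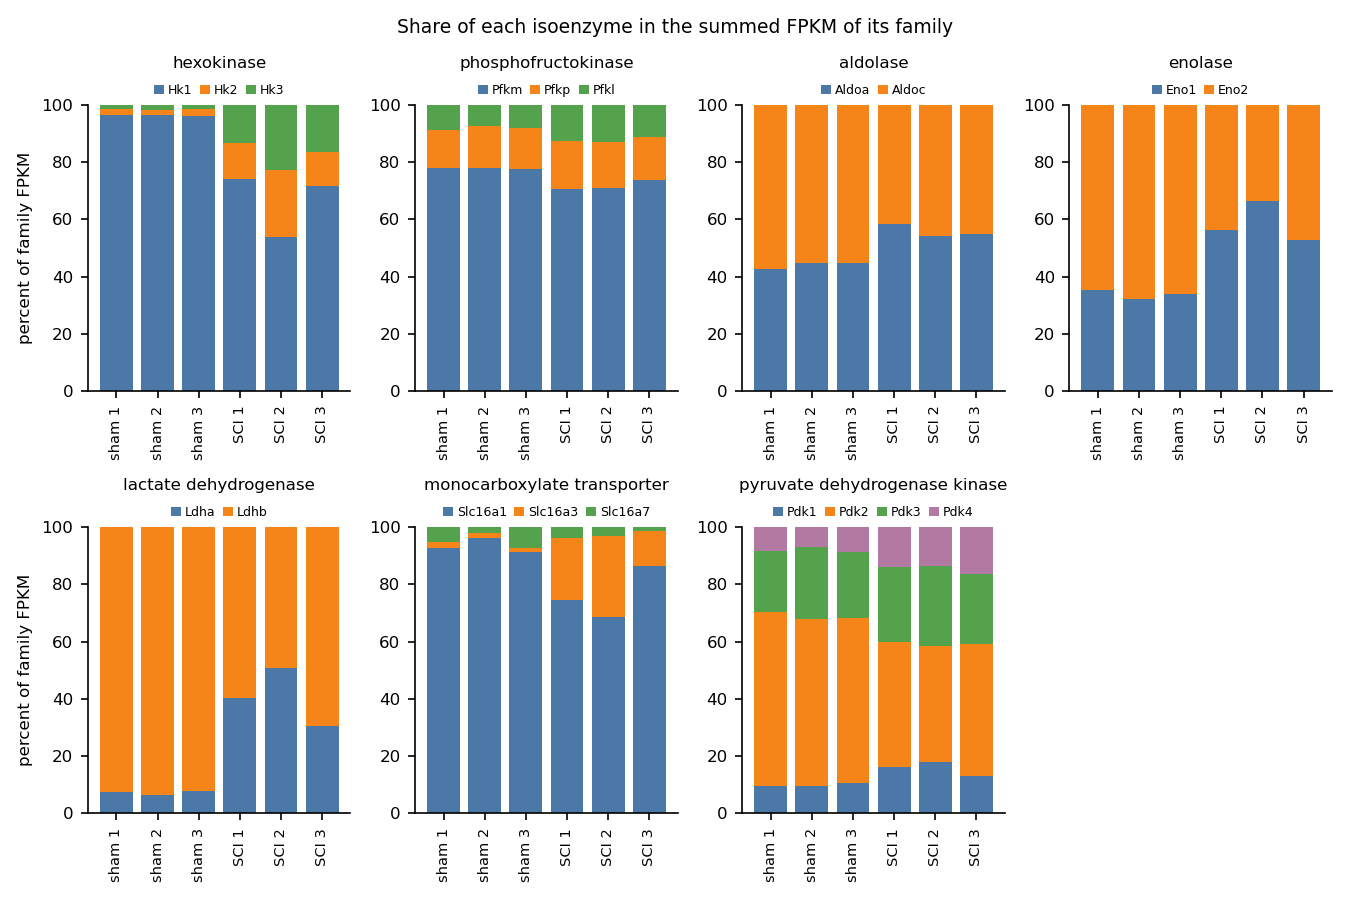
Percent of the summed FPKM of each isoenzyme family (y axis) held by each member in the 6 libraries (bars). Ldha, Hk2, Hk3, Slc16a3 and Eno1 take a larger share in every SCI library than in any sham library.

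Ratios of isoenzymes within a library do not depend on how the library was scaled, and 7 pairs were compared. The log2 ratio of Ldha to Ldhb was −3.67, −3.86 and −3.59 in sham and −0.58, 0.04 and −1.19 in SCI libraries, a difference of 3.13 (SE 0.36). The ratio of Hk1 to Hk2 moved about as far, from 49.7, 58.1 and 42.1 to 5.90, 2.32 and 6.01, a log2 difference of −3.51 (SE 0.47). Eno1 to Eno2 changed by 1.47 (SE 0.25) and Aldoa to Aldoc by 0.69 (SE 0.09), and both ratios went from below to above 1. The phosphofructokinase ratios changed by −0.74 (SE 0.11) for Pfkm to Pfkl, −0.44 (SE 0.13) for Pfkp to Pfkl and −0.30 (SE 0.08) for Pfkm to Pfkp. In each of the 7 pairs the ratios of the groups did not overlap. The exact two-sided permutation test gave p = 0.1 for each, also after adjustment over the 7 pairs, which is the smallest p that 3 against 3 libraries allow and does not pass. With near-identical copies summed, the change of Eno1 to Eno2 was 1.49.

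**Figure D5:**
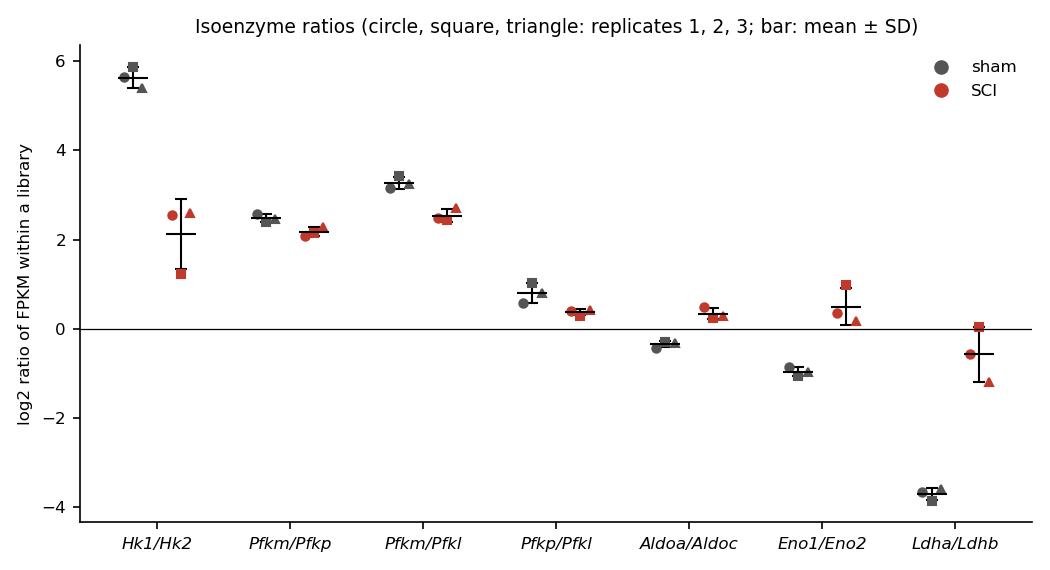
Log2 ratio of the FPKM of paired isoenzymes (y axis) in each library, with symbols for replicates 1, 2 and 3 and bars for mean ± SD. For Ldha to Ldhb the sham values lie between −3.86 and −3.59 and the SCI values between −1.19 and 0.04, and none of the 7 pairs overlaps between groups.

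Genes that take pyruvate into mitochondrial oxidation were lower or did not pass. Pdha1 and Pdhb encode the first enzyme of the pyruvate dehydrogenase complex. Pdhb measured 86.5, 91.7 and 90.9 FPKM in the sham cord versus 53.1, 46.0 and 59.9 after SCI (log2 change −0.76, SE 0.10, limma adjusted p = 9.2e-04). Pdha1 went from 153 ± 5.07 to 122 ± 12.3 FPKM (−0.33, SE 0.09, limma adjusted p = 0.016), a call that ended without sham replicate 2 (−0.31). Both SCI groups lay wholly below their sham groups. The kinases that switch this complex off by phosphorylation also differed among themselves. Pdk2, the most abundant, measured 74.2, 64.5 and 64.6 FPKM in the sham cord versus 35.7, 27.8 and 40.9 after SCI (−0.96, SE 0.14, limma adjusted p = 0.0013). Pdk3 measured 26.2, 27.8 and 25.6 FPKM in the sham cord versus 21.5, 19.1 and 21.9 after SCI (−0.34, SE 0.08, limma adjusted p = 0.011). Pdk1, a kinase gene induced in hypoxia, measured 11.6, 10.5 and 11.7 FPKM in the sham cord versus 13.3, 12.2 and 11.7 after SCI and did not pass (0.12). Pdk4, induced by fasting, was at 9.09 ± 1.24 and 11.8 ± 2.49 FPKM and missed the threshold (0.33). Leaving out SCI replicate 2 (0.47) or median-ratio scaling (0.41) brought it past.

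The other genes of pyruvate and lactate handling, from a list of 13, had 8 lower, 0 higher and 4 not past the threshold among 12 tested, where 30.8% of all genes tested were lower and 26.7% higher. The 3 with the largest changes were Pcx, pyruvate carboxylase (log2 change −0.87), Pdp1, the phosphatase that reactivates pyruvate dehydrogenase (−0.75), and Mpc2, a subunit of the mitochondrial pyruvate carrier (−0.63). The median log2 change of the 12 was −0.44, against −0.08 over all genes tested.

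The pentose phosphate genes rose in 4 of 5 cases, where 26.7% of all genes tested were higher. G6pdx, the first and rate-limiting enzyme, measured 40.0, 44.5 and 44.3 FPKM in the sham cord versus 75.6, 72.0 and 75.1 after SCI (log2 change 0.78, SE 0.07, limma adjusted p = 1.9e-04). Pgls, the lactonase of the next step, measured 7.91, 7.36 and 7.08 FPKM in the sham cord versus 15.0, 14.3 and 13.2 after SCI (0.85, SE 0.09, limma adjusted p = 3.0e-04). Pgd, which makes the second NADPH, changed most, from 15.5, 13.6 and 15.2 to 40.7, 46.8 and 38.7 FPKM (1.45, SE 0.10, limma adjusted p = 4.7e-05). The SCI libraries lay close to each other for all 3 enzymes of this oxidative branch. In the non-oxidative branch, which returns pentoses to glycolysis, Taldo1 (transaldolase) went from 117 ± 1.48 to 181 ± 21.8 FPKM (0.61, SE 0.10, limma adjusted p = 0.0016). Tkt (transketolase) measured 68.1, 58.9 and 61.3 FPKM in the sham cord versus 69.8, 65.0 and 69.4 after SCI and did not pass (0.12), except under median-ratio scaling (0.21). Pgls overlaps Fam129c on the same strand and G6pdx overlaps Ikbkg on the opposite strand. Among 4 other tested genes of the pathway, H6pd, the enzyme of the endoplasmic reticulum that runs the same first steps, rose from 4.81 ± 1.05 to 23.2 ± 12.2 FPKM (1.96), and the other three did not pass.

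Hif1a, the oxygen-regulated subunit of the transcription factor that induces many glycolytic genes, measured 44.8, 42.7 and 46.9 FPKM in the sham cord versus 95.4, 129 and 103 after SCI. Its log2 change was 1.25 (SE 0.12, limma adjusted p = 1.9e-04). The activity of this factor is set mainly by the stability of its protein, which was not measured. Adm, which encodes the vasodilator adrenomedullin and is a known target of it, measured 4.80, 2.78 and 3.65 FPKM in the sham cord versus 18.8, 18.5 and 9.89 after SCI (1.79, SE 0.26, limma adjusted p = 0.0012). All SCI libraries were above all sham libraries for both genes.

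Other known hypoxia targets went both ways, with 5 of 20 higher, 7 lower and 8 not past the threshold, shares close to the 26.7% higher and 30.8% lower among all genes tested. Of the 5 that were higher, 2 reached 1 FPKM in fewer than 3 sham libraries. Hmox1, which degrades haem (log2 change 5.74), and Hilpda, a lipid droplet protein (2.15), were among those that rose. Bnip3 (−0.89) and Ndrg1 (−0.94), chosen after their values were seen, were among those that fell, and the median of the 20 was 0.10. Of 7 regulators, Arnt2 (−0.53) and Hif1an, the asparaginyl hydroxylase that inhibits the factor (−0.49), were lower. Arnt, the partner subunit, was higher (0.28), a call lost when sham replicate 1 (0.26), sham replicate 2 (0.26) or SCI replicate 3 (0.28) was left out.

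The remaining lists gave context for glucose stores and for other entry points. Of 15 glycogen genes 14 were tested, with 4 higher and 4 lower. These shares were close to the 26.7% higher and 30.8% lower among all genes tested. Ppp1r3b (1.73) and Pygl, the liver-type glycogen phosphorylase (1.29), rose, and Epm2a, the glycogen phosphatase laforin (−1.17), fell. Ppp1r3b reached 1 FPKM in no sham library and in all 3 SCI libraries, so that it entered the test through the SCI group. Of 20 other genes of glucose entry and glycolysis 15 were tested, with 3 higher and 4 lower, both below the shares among all genes tested. The 3 with the largest changes all rose: Pgm2 (1.68), Gpd1, the glycerol 3-phosphate dehydrogenase of the cytosol (1.41), and Slc2a1. Eno3 and Pgam2, the muscle forms, were at 33.4 and 19.6 FPKM in SCI replicate 3 and at 8.13 to 16.6 and 3.25 to 9.31 in the other libraries. The sum of muscle markers was also highest in that library. A link of these genes to muscle tissue was not tested, and neither gene passed.

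Positions on GRCm38, as the files list them, are given for 8 of the genes. Ldha (ENSMUSG00000063229) spans bases 46841475 to 46855627 of chromosome 7, plus strand, and Ldhb (ENSMUSG00000030246) bases 142490249 to 142507957 of chromosome 6, minus strand. Hk2 (ENSMUSG00000000628) spans bases 82725025 to 82774454 of chromosome 6, minus strand, and Hk3 (ENSMUSG00000025877) bases 55005985 to 55021385 of chromosome 13, minus strand. Slc16a3 (ENSMUSG00000025161) spans bases 120948480 to 120958775 of chromosome 11, plus strand, and Pgd bases 149149991 to 149166707 of chromosome 4, minus strand. Eno1 spans bases 150236721 to 150248879 of chromosome 4, plus strand, and Eno2 bases 124760053 to 124769621 of chromosome 6, minus strand. Each value is a total over the gene. For 10 of the 39 genes the annotated span crosses that of another gene averaging 1 FPKM or more, on the opposite strand for 8 of them.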

How the data were processed

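RNA-seq libraries of spinal cord pieces, 3 sham and 3 SCI, were used, 1 deposited table each. The authors deposited FPKM, as the file headers name them. Software listed in the submitters' processing notes, with no role, is StringTie 1.3.4d, HISAT2 2.0.4, cutadapt 1.9, edgeR, DESeq2 and UMI-tools, with mm9 as the build, and the strand setting is not given in the sources used here. Molecular identifiers in the adapters, dUTP strand marking and poly(A) selection are per the labels' protocols. Gene positions are those of GRCm38: 33485 of 36502 shared identifiers (91.7%) have the same start and end in GENCODE M21, and 31 of the 40 rows reported on (77.5%).

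FPKM summed to 716215 to 734791 per library. Depth is unknown: no step of whole reads was found, since log2 ratios of short low genes between libraries did not pile up (at most 3.31% in any one bin). limma 3.58.1 (R 4.3.3, mean-variance trend) was fitted to log2(FPKM + 1) of the 17435 genes that reached 1 FPKM in 3 or more libraries, with group as the term, which understates changes of low genes. Isoenzyme ratios used an exact permutation test (scipy 1.17.1). Copies were found with BLAST 2.17.0 on GENCODE M21 transcripts. The fit was tested on simulated data. The genes and lists were chosen with earlier results of these data known. Named are all 39 genes and, of each further pathway list, up to 3 past the threshold with the largest change. One gene that this rule names is not reported here. Bnip3, Ndrg1, Eno3, Pgam2 and the single cell type markers, among them Scn10a and Mrgprd, were named after their values were seen. Of the lists, Pgk2 had no row.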

Additional observations from a re-analysis of the deposited data

How the results depend on the processing

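Of the 38 tested genes, 24 kept their direction and their side of the threshold under every one of the 14 alternatives in which they were tested, among them Ldha, Ldhb, Hk2, Hk3, Slc16a3, Eno1, Eno2, Aldoc, Pdk2, G6pdx, Pgd, Hif1a and Adm, and 14 did not. The number of genes higher ranged from 13 to 20 and that of genes lower from 9 to 12, with 20 and 10 under median-ratio scaling, and the 7 isoenzyme ratios kept their direction. Small changes reversed: Pgam1 was at 0.0011 under median-ratio scaling, Slc16a7 at 0.11 without sham replicate 3 and 0.098 without SCI replicate 3, and the second row of Aldoa at 0.12 without sham replicate 1 and 0.066 without SCI replicate 3. With each library left out in turn, Slc16a7 ranged from −0.53 to 0.11 and the second row of Aldoa from −0.32 to 0.12. The cause was not tested. The rise of Gapdh did not pass with copies summed (0.096), an alternative added after the data were seen. With no filter on low values, Pfkl, Tpi1 and Pfkfb3 did not pass and Pfkp did (−0.14).

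Replicate numbers are shared between groups, but same-numbered libraries did not deviate together (correlations of −0.008, −0.039 and 0.022), so they are numbers without a pairing. With a replicate block 13 genes were higher and 10 lower, and Pfkl, Tpi1 and Pfkfb3 did not pass. The log2 difference of Ldha to Ldhb was 3.13 with the pairing, with a smallest exact p of 0.25. With unknown depth, low genes such as Fbp1 and Slc16a7 have no counting error that could be given.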
